A study of Mus musculus with 4 samples.

Results

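The Kupffer cell identity genes Clec4f, Vsig4, Timd4, Marco, Cd163, Folr2, Cd5l, Nr1h3 and Adgre1 were followed through liver immune cells of 4 mouse single-cell libraries. These members were taken by gene symbol, and all 9 were found among the 32285 genes of the count tables. Raw unique molecular identifiers (UMIs, each standing for 1 captured transcript molecule) were summed over myeloid classes gated on marker genes, together with the number of cells that held them.

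All 4 libraries held CD45+ cells sorted by FACS from the livers of female C57BL/6 mice, with 1 library per group. Young WT mice were about 8 weeks old and untreated. Treated WT mice were 36 weeks old, had received the liver carcinogen diethylnitrosamine (DEN) at 25 mg/kg on day 14, and ate a choline-deficient high-fat diet (CDHFD) from day 21. The miR-146a-/- mice lacked miR-146a, a microRNA that restrains inflammatory signaling, and had the age, DEN and diet of treated WT. Double knockout (DKO) mice lacked both miR-146a and the chemokine gene Ccl5, again at the same age and with the same DEN and diet. How many mice went into a library is not given in the sources used here. Age, DEN and diet differed together between young and treated WT and cannot be told apart. The libraries held 10985, 9120, 8393 and 10623 cells for young WT, treated WT, miR-146a-/- and DKO, of which 10283, 8329, 7824 and 9850 passed the limits on features and mitochondrial UMIs and are called kept cells. Kept cells carried 83882711, 84158257, 79464882 and 96747482 UMIs in the same order, with medians of 6782, 8210, 7910 and 7558 UMIs per cell. Ccl5 stood at 6174, 12544, 12496 and 65.4 CPM in kept cells, where CPM is the UMI count of a gene scaled to the same fixed total for every set of cells, so its loss was visible in the DKO library. Mature miR-146a is not read by this assay. Between 109 and 150 cell barcodes were shared by each pair of libraries.

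Kupffer cells are the resident macrophages of the liver sinusoids, where they clear particles, dying cells and aged erythrocytes from portal blood. They are seeded before birth and renew in place, and liver X receptor alpha, the product of Nr1h3, is among the transcription factors that hold their identity. When they are lost in fatty liver disease, blood monocytes can fill the niche and take on the same genes in steps, with Clec4f early and Timd4 late.

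Clec4f, Vsig4, Timd4 and Cd5l, called the core genes here, were used together to count cells with Kupffer genes, so the DNA before their start sites is shown. RefSeq promoter entries (GRCm38.p6) existed for 8 of the 9 members, and Adgre1 had none. The 250 bases before the start are printed 5' to 3' on the gene's strand, for Clec4f (ENSMUSG00000014542) at chr6:83656117-83656366, minus strand, Vsig4 (ENSMUSG00000044206) at chrX:96293439-96293688, minus strand, Timd4 (ENSMUSG00000055546) at chr11:46810549-46810798, plus strand, and Cd5l (ENSMUSG00000015854) at chr3:87357631-87357880, plus strand. Capitals mark GAGGAA, the core of many PU.1 and ETS-type sites, and TGCTGA, a half-site bound by MAF proteins, on either strand, where the reverse strand reads TTCCTC and TCAGCA. The motifs shown in capitals were chosen after the matches had been seen.
Clec4f: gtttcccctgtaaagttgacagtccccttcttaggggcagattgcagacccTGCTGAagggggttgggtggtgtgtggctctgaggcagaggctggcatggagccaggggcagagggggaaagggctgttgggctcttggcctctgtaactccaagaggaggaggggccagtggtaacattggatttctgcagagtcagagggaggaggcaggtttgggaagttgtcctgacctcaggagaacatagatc
Vsig4: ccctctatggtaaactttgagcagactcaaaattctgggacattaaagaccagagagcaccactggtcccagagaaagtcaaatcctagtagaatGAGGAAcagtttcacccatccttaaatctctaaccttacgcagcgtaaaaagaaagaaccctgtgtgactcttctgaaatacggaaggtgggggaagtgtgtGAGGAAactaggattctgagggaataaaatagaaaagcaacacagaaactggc
Timd4: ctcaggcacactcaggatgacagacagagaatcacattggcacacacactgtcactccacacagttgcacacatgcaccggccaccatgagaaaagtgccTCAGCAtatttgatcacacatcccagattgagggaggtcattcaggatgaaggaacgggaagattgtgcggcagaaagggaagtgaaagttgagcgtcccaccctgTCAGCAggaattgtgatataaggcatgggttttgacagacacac
Cd5l: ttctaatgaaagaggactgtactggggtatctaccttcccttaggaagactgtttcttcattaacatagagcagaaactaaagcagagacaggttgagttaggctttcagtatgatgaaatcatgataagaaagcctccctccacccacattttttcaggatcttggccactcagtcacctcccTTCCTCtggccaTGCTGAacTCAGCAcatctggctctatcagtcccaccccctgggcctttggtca

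GAGGAA lay 155 and 53 bases before the start of Vsig4 and 66 bases before that of Cd5l, while 28.3% of all 32851 promoter entries held it in the 250 bases before to 50 after a start. TGCTGA, held by 19.5% of all entries, lay 199 bases before the start of Clec4f, 150 and 44 bases before Timd4, and 54 and 46 bases before Cd5l, and also 23 bases after the start of Vsig4. AGGTCA, the nuclear receptor half-site, was in 16.3% of entries and lay 22 bases before Clec4f and 116 bases before Timd4. No member entry held 2 copies of AGGTCA set 4 bases apart, the arrangement known for liver X receptors, which only 5 of all entries did, and none held the E-box CACGTG, found in 7.15%. Among the other members, Marco had GAGGAA 146 bases before its start, Nr1h3 had it 10 bases after, and Folr2 had TGCTGA 220 and 19 bases before the starts of its different entries. A match of letters is a description of the sequence and not a binding site.

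Myeloid classes were gated on marker genes that exclude the members. A C1q macrophage held all 3 genes C1qa, C1qb and C1qc with at least 10 UMIs summed, and at most 1 UMI of the T, B and NK marker genes. The class had 29, 90, 66 and 156 cells in young WT, treated WT, miR-146a-/- and DKO, which was 0.282, 1.08, 0.844 and 1.58% of kept cells. A larger number of barcodes passed the C1q gate but carried over 1 lymphoid UMI, namely 78, 407, 159 and 301, and these are called lymphoid-bearing C1q barcodes. Their median depth was 13678, 16024, 12818 and 11477 UMIs, against 10138, 11398.5, 11632 and 10756.5 in the C1q class. Whether they are doublets was not tested. Of the C1q class, 17, 70, 58 and 135 cells also passed another gate, and 5, 19, 12 and 30 had only 10 to 19 C1q UMIs, while 40, 155, 86 and 207 kept cells had 5 to 9.

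Marker genes were then summed over the C1q class of each library. The C1q genes, on which the class was gated, summed to 7823, 5049, 6145 and 6029 CPM. Csf1r, the receptor for macrophage growth factor, stood at 785, 685, 662 and 688 CPM, near its level in classical monocytes (728, 734, 732 and 785 CPM). Lyz2, the lysozyme gene of myeloid cells, stood at 11256, 6530, 5699 and 7105 CPM, but cells with under 3 Lyz2 UMIs made up 3.45, 3.33, 15.2 and 35.3% of the class. Classical monocyte genes summed to 1147, 855, 744 and 575 CPM, led by Ccr2, and patrolling monocyte genes to 348, 362, 538 and 766 CPM, led by Adgre4. The 2 genes Negr1 and Fcgr4, which gate another class, summed to 120.5, 86.7, 339.5 and 818 CPM, led by Fcgr4 at 107, 86.7, 288 and 603 CPM, with Negr1 at 0 in treated WT. Neutrophil genes gave 58.5, 213, 59.3 and 60.8 CPM, led by S100a8 in treated WT (109 CPM) and by Csf3r elsewhere, with Ly6g at 0 in every library. Dendritic cell genes were present too, with 313, 309, 338 and 444 CPM for type 1, led by Cadm1, 89.5, 149, 144 and 125 CPM for type 2, led by Tnip3 in the WT libraries and Cd209a in the knockouts, and 127, 79.6, 20.9 and 8.39 CPM for mature cells. Xcr1 was at 0 in young WT and DKO, and Cd209a in young WT. Plasmacytoid genes gave 3.44, 1.79, 1.16 and 8.91 CPM and basophil genes 0, 0, 2.33 and 4.72 CPM, with Mcpt8 at 0 throughout. T cell genes gave 20.7, 7.15, 2.33 and 3.14 CPM, B cell genes 6.89, 11.6, 11.6 and 22.0 CPM and NK genes 3.44, 1.79, 2.33 and 1.05 CPM, all held low by the gate. Markers of peritoneal macrophages summed to 62.0, 101.0, 143 and 296 CPM, led by Fn1 at 62.0, 101.0, 142 and 140.5 CPM, with Gata6 at 0 except in DKO. Hepatocyte genes summed to 107, 43.8, 27.9 and 30.4 CPM, with Alb highest at 62.0, 18.8, 8.14 and 11.0 CPM. Sinusoidal endothelial genes gave 44.8, 13.4, 11.6 and 17.8 CPM, stellate genes 0, 2.68, 1.16 and 2.62 CPM and erythroid genes 0, 1.79, 2.33 and 1.57 CPM. Platelet genes gave 24.1, 45.6, 26.7 and 55.6 CPM, led by Pf4, with Ppbp, Itga2b and Gp9 at 0 in young and treated WT. The part of these marker genes in the levels of the members was not tested.

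The members differed in which kept cells held them. UMIs of Clec4f, Vsig4, Cd5l and Folr2 lay mostly in C1q barcodes of young and treated WT, while Timd4 of the knockouts lay mostly in dendritic cells. In young and treated WT too, dendritic cells held more Timd4 (44 and 25.7%) than any other named group. Cd163 lay mostly in dendritic cells, plasmacytoid dendritic cells (pDC) and lymphoid cells, and Nr1h3 and Adgre1 were spread widely. Besides monocytes and C1q barcodes, kept cells placed in no listed group held 42.3, 36.1, 26.7 and 24.7% of Nr1h3 and 38.0, 35.5, 34.5 and 29.0% of Adgre1 UMIs. That remainder includes neutrophils and lymphoid-bearing barcodes that passed a monocyte or dendritic gate. Lymphoid cells of young WT held 9.25% of Nr1h3 and 19.2% of Adgre1 UMIs. Marco lay in C1q barcodes of young and treated WT, but 81.0% of its miR-146a-/- UMIs lay in monocytes, and 1 cell held 43 of the 58 UMIs of that library, without which 15 remained. In treated WT the lymphoid-bearing C1q barcodes held 67.2% of Clec4f, 69.0% of Vsig4, 70.3% of Cd5l, 72.4% of Folr2 and 68.1% of Marco UMIs. The C1q class itself held 61.3% of Clec4f, 51.0% of Vsig4, 53.7% of Cd5l and 64.7% of Folr2 UMIs in young WT, against 8.66, 3.32, 10.8 and 8.62% in treated WT. A single young WT cell of 20638 UMIs weighed on those shares, and without it the C1q class of young WT held 23 of 105 Clec4f, 13 of 85 Vsig4, 34 of 153 Cd5l and 8 of 32 Folr2 UMIs. In miR-146a-/- no Clec4f UMI of 11 lay in C1q barcodes and 54.5% lay in lymphoid cells. In DKO the C1q class held 16.7% and the lymphoid-bearing C1q barcodes 14.3% of Clec4f, against 40.5% in lymphoid cells. The label of the list, taken as most UMIs lying in C1q barcodes, was thus met by Clec4f, Vsig4, Cd5l and Folr2 in young and treated WT. Marco met it there too, with 20% in the C1q class and 44% in lymphoid-bearing C1q barcodes of young WT and 17.4 and 68.1% in treated WT. It had few UMIs, 25 in young WT and 69 in treated WT. In treated WT 1 lymphoid-bearing C1q barcode held 35 of them and 1 C1q macrophage 12. In DKO it was met by Cd5l (18.5% in the C1q class and 54.99% in lymphoid-bearing C1q barcodes) and Folr2 (32.3 and 38.7% of 31 UMIs). Clec4f and Marco did not meet it in the knockouts, nor did Vsig4, with 22.6 and 16.9% in DKO and 1.72 and 25.9% in miR-146a-/-. Cd5l did not meet it in miR-146a-/- either, with 3.92% in the C1q class and 35.3% in lymphoid-bearing C1q barcodes against 29.4% in lymphoid cells, and Folr2 had only 2 UMIs in that library.

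**Figure D1:**
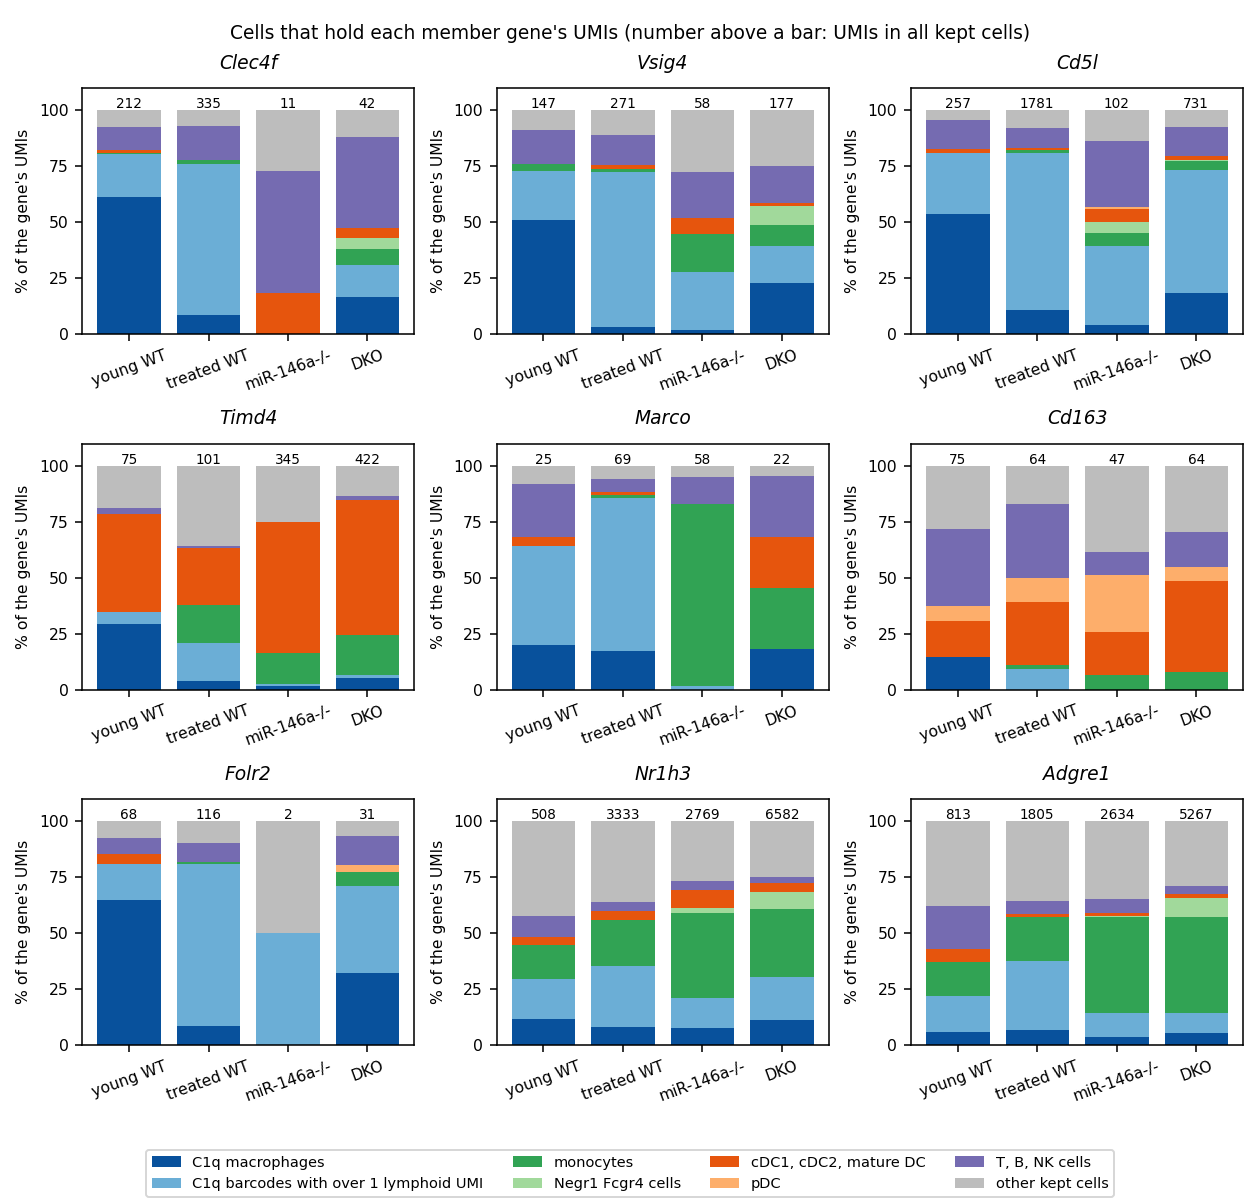
Share of each member's UMIs (vertical axis, %) by the kind of cell that held them, as stacked bars for the 4 libraries, with the number of UMIs in all kept cells above each bar. C1q macrophages and lymphoid-bearing C1q barcodes (both blue) filled most of the Clec4f, Vsig4, Cd5l and Folr2 bars of young and treated WT, whereas Timd4 lay mostly in dendritic cells of miR-146a-/- and DKO (58.3 and 60.4%).

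Summed over all kept cells, the core genes gave 8.24 CPM (7.63 to 8.88) in young WT, 29.6 (28.4 to 30.7) in treated WT, 6.49 (5.95 to 7.08) in miR-146a-/- and 14.2 (13.4 to 15.0) in DKO. Ranges in parentheses are exact 95% Poisson limits for sums and exact 95% Clopper-Pearson limits for shares, and both cover counting error only. With 1 library per group no difference between groups has a replicate check, and none was tested. The core genes were thus highest in treated WT when all kept cells were counted, in 496 cells, with 135 cells in young WT, 229 in miR-146a-/- and 445 in DKO. The same young WT cell of 20638 UMIs held 292 of the 691 core-gene UMIs of its library. Leaving out the cell richest in core genes in each library, a choice made after seeing the data, gave 4.76 (4.30 to 5.25), 28.3 (27.2 to 29.5), 6.21 (5.67 to 6.78) and 13.5 CPM (12.8 to 14.2), so young WT stood above miR-146a-/- with that cell and below it without. Timd4, which lay mostly in dendritic cells there, made up 345 of the 516 core-gene UMIs of miR-146a-/-. Without Timd4, again chosen after seeing the data, the other 3 core genes gave 7.34 (6.78 to 7.95), 28.4 (27.2 to 29.5), 2.15 (1.84 to 2.50) and 9.82 CPM (9.20 to 10.5), and 4.09 (3.67 to 4.55) in young WT without its richest cell, so miR-146a-/- was lowest either way.

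Clec4f encodes a C-type lectin that binds galactose-bearing glycans and, in mice, is made by Kupffer cells. In all kept cells it gave 212 UMIs in 44 cells of young WT, 335 in 119 cells of treated WT, 11 in 11 cells of miR-146a-/- and 42 in 33 cells of DKO. In C1q macrophages the level was 448 CPM (374 to 531), 25.9 (17.4 to 37.2), 0 (limit 3.49) and 3.67 (1.48 to 7.56) in the same order. The limit beside a count of 0, for levels and shares alike, is what 3 counts of that library's total would make, and not a Poisson or Clopper-Pearson limit. Young WT stood above treated WT and treated WT above both knockouts, whose limits overlapped. The young WT cell of 20638 UMIs held 107 of the 130 Clec4f UMIs of its class, and without it the young WT level was 85.2 CPM (54.0 to 128), still above treated WT. In treated WT 17 of the 29 UMIs lay in 1 cell of 3257 UMIs, and without it 12 UMIs remained, or 10.8 CPM (5.56 to 18.8), which overlapped DKO. Lymphoid-bearing C1q barcodes gave 35.1, 33.5, 0 and 1.51 CPM, nearly equal in young and treated WT. Outside C1q barcodes no myeloid class of any library passed 3.06 CPM.

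Vsig4, the complement receptor CRIg that binds C3b-coated particles, gave 147 UMIs in 47 cells, 271 in 125, 58 in 48 and 177 in 102 kept cells of young WT, treated WT, miR-146a-/- and DKO. Its level in C1q macrophages was 258 CPM (203 to 324), 8.05 (3.68 to 15.3), 1.16 (0.0294 to 6.48) and 21.0 (15.0 to 28.5). Young WT was highest, and the limits of treated WT overlapped those of both knockouts. The same young WT cell held 62 of 75 Vsig4 UMIs, and 1 DKO cell of 23275 UMIs held 28 of 40. Without those cells young WT gave 48.2 CPM (25.7 to 82.4) and DKO 6.37 (3.29 to 11.1), which left DKO within the limits of treated WT. Folr2 (ENSMUSG00000032725), a folate receptor of tissue macrophages, was likewise highest in young WT at 151 CPM (110.1 to 203), 8.94 (4.29 to 16.4), 0 (limit 3.49) and 5.24 (2.51 to 9.64), and 29.7 (12.8 to 58.4) in young WT without that cell, which held 36 of its 44 UMIs.

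Timd4 encodes a receptor for phosphatidylserine on dying cells and is regarded as a mark of long-resident Kupffer cells. In C1q macrophages it gave 22 UMIs in 4 cells, 4 in 3 cells, 5 in 2 cells and 22 in 7 cells, or 75.7 CPM (47.5 to 115), 3.58 (0.974 to 9.16), 5.81 (1.89 to 13.6) and 11.5 (7.23 to 17.5). Of the young WT UMIs 19 lay in the 1 cell named above, and without it the level was 11.1 CPM (2.29 to 32.5), which overlapped the other 3 libraries. In miR-146a-/- 4 of the 5 UMIs lay in 1 cell, and the remaining cells gave 1.18 CPM. Over all kept cells Timd4 had 75, 101, 345 and 422 UMIs in 36, 38, 109 and 118 cells, so unlike the other core genes it was highest in miR-146a-/- and DKO.

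Marco (ENSMUSG00000026390) and Cd163 (ENSMUSG00000008845) are scavenger receptors, for bacteria and particles and for hemoglobin-haptoglobin complexes. Marco was seen in 1 C1q macrophage of each library but miR-146a-/-, with 5, 12, 0 and 4 UMIs, or 17.2 CPM (5.59 to 40.2), 10.7 (5.54 to 18.7), 0 (limit 3.49) and 2.10 (0.571 to 5.37). Its levels therefore rested on 1 cell in each library, and without the young WT cell that level was 0. Cd163 had 11 UMIs in 2 C1q macrophages of young WT, 10 of them in the same cell, and none in the other 3 libraries, giving 37.9 CPM (18.9 to 67.8) or 3.71 (0.0938 to 20.7) without that cell. Its UMIs in kept cells numbered 75, 64, 47 and 64, and conventional dendritic cells of type 2 (cDC2) held it at 10.5, 16.9, 3.91 and 9.66 CPM, pDC at 4.16, 8.54, 8.11 and 2.80 CPM, and NK cells at 2.07, 1.62, 0.488 and 0.702 CPM. In each of these classes the Cd163 limits of every library overlapped those of the next, but in NK cells young WT lay narrowly above miR-146a-/-.

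Cd5l, the secreted protein AIM of macrophages that act on lipids and apoptotic debris, gave 257, 1781, 102 and 731 UMIs in 60, 381, 72 and 232 kept cells. In C1q macrophages the level was 475 CPM (399 to 561), 172 (148 to 198), 4.65 (1.27 to 11.9) and 70.8 (59.3 to 83.7), so that every library stood apart from the next. The young WT cell held 104 of 138 UMIs and 1 treated WT cell of 16374 UMIs held 65 of 192. Without the cell richest in core genes the levels were 126 (87.3 to 176), 115 (96.1 to 137), 4.72 (1.29 to 12.1) and 50.4 CPM (40.8 to 61.6), and young and treated WT overlapped. In lymphoid-bearing C1q barcodes Cd5l stood at 59.9, 187, 15.9 and 100.9 CPM, highest in treated WT. Cd5l was held by 21 of 44, 79 of 119, 1 of 11 and 11 of 33 Clec4f cells of young WT, treated WT, miR-146a-/- and DKO. It was held by 20 of 47, 73 of 125, 4 of 48 and 17 of 102 Vsig4 cells in the same order.

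Nr1h3 (ENSMUSG00000002108), which encodes the oxysterol-sensing liver X receptor alpha, gave 199.7 CPM (152 to 258), 242 (214 to 273), 251 (219 to 287) and 388 (361 to 417) in C1q macrophages, with UMIs in 15 of 29, 65 of 90, 53 of 66 and 133 of 156 cells. The first 3 libraries overlapped and DKO stood above them. Adgre1 (ENSMUSG00000004730), the gene of the F4/80 surface antigen of mouse macrophages, gave 158 CPM (116 to 211), 112 (93.0 to 133), 112 (90.4 to 136) and 151 (135 to 170.0), with overlapping limits throughout except that DKO lay above treated WT by a narrow margin. Without the cell richest in core genes Nr1h3 gave 189, 243, 255 and 385 CPM, in the same order, and Adgre1 145, 105, 112 and 140.1 CPM, where DKO (124 to 158) overlapped treated WT (87.0 to 126). In the C1q class the Negr1 and Fcgr4 sum and the share of cells with under 3 Lyz2 UMIs were highest in DKO as well, at 818 CPM and 35.3%. With the cells under 3 Lyz2 UMIs left out, also chosen after seeing the data, the log2 ratio of Nr1h3 in DKO over miR-146a-/- was 0.60, against 0.63 with them. The part of these cells and of the Negr1 and Fcgr4 genes in the Nr1h3 level was not tested. Over all kept cells Nr1h3 stood at 6.06, 39.6, 34.8 and 68.0 CPM and Adgre1 at 9.69, 21.4, 33.1 and 54.4 CPM, both lowest in young WT and highest in DKO. Patrolling monocytes made up 0.846, 2.03, 8.97 and 12.1% of kept cells and Negr1 Fcgr4 cells 0, 0, 0.268 and 2.82%. The share of patrolling monocytes had the order of the Adgre1 levels but not of the Nr1h3 levels, which were higher in treated WT than in miR-146a-/-, and the part of these shares in the levels over all kept cells was not tested.

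**Figure D2:**
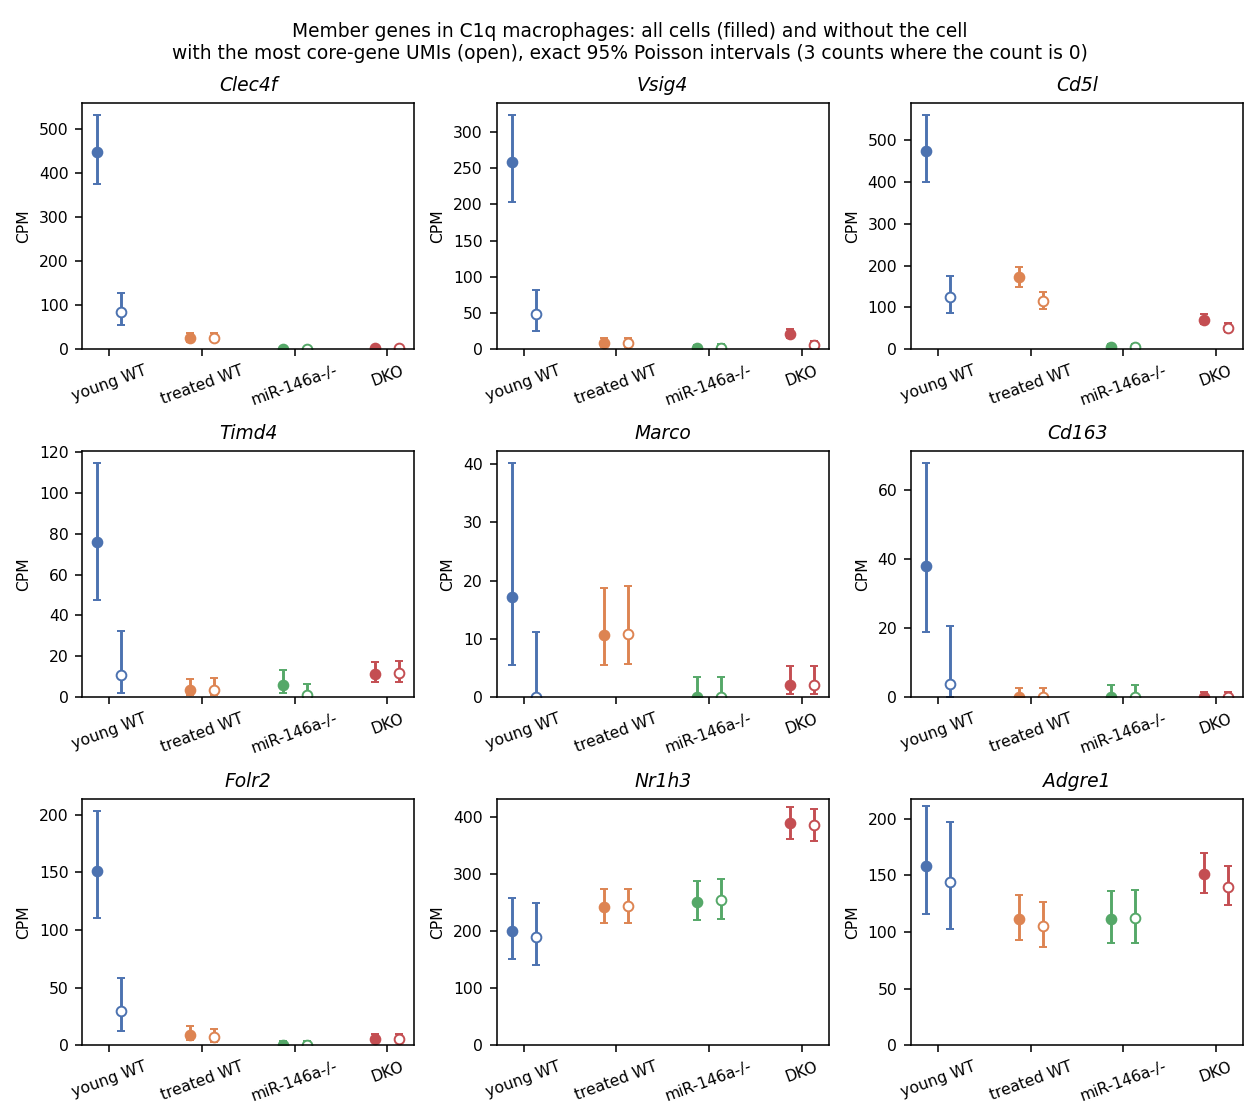
Level of each member (vertical axis, CPM) in C1q macrophages of the 4 libraries, as filled points for all cells and open points without the cell holding the most core-gene UMIs, with exact 95% Poisson limits as bars (3 counts where the count was 0). Clec4f in young WT dropped from 448 to 85.2 CPM and Cd5l from 475 to 126 CPM when 1 cell was left out, whereas Nr1h3 in DKO moved from 388 to 385 CPM.

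Shares of C1q macrophages with a UMI depend on depth, so each cell was thinned to 2000 UMIs, which left out 4, 4, 4 and 10 shallower cells. Cd5l was then present in 20% (6.83 to 40.7), 11.6% (5.72 to 20.3), 0% of 62 cells (which allows up to 4.84%) and 5.48% (2.40 to 10.5), against 27.6, 21.1, 6.06 and 17.3% before thinning. Clec4f reached 12.0, 3.49, 0 and 0.685% (24.1, 8.89, 0 and 3.21% before) and Vsig4 16.0, 1.16, 0 and 2.05% (24.1, 4.44, 1.52 and 3.21% before). Timd4 reached 4, 0, 1.61 and 1.37% (13.8, 3.33, 3.03 and 4.49% before), and Folr2, Marco and Cd163 at most 4% in any library. Nr1h3 was present in 24.0, 30.2, 35.5 and 53.4% (51.7, 72.2, 80.3 and 85.3% before) and Adgre1 in 24.0, 19.8, 21.0 and 25.3% (72.4, 56.7, 51.5 and 57.7% before). B cells, used as a measure of free RNA at median depths of 5733, 7121.5, 7093.5 and 6721 UMIs, showed Clec4f, Vsig4 and Timd4 in 0% after thinning, which allows up to 0.234, 0.418, 0.667 and 0.432%, with 15, 19, 0 and 9 shallower B cells left out. Cd5l reached 0.156, 0.279, 0 and 0.288% of thinned B cells, Nr1h3 0.156, 0, 0.222 and 0.432%, and Adgre1 1.95, 1.67, 4.44 and 4.17%, against 0.231, 1.63, 0.222 and 0.994%, 0.616, 1.09, 0.222 and 1.56%, and 4.16, 4.48, 11.6 and 9.52% before thinning. Apart from the libraries at 0, the shares of the C1q class lay above the B cell shares for these genes as point values. For Timd4 this was lost with a second random start, which gave 0% in young WT, miR-146a-/- and DKO. Low shares, such as 0.685% for Clec4f in DKO and 1.16% for Vsig4 in treated WT, rested on very few cells. The limits of the Clec4f, Vsig4 and Timd4 shares were not set against those of B cells.

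To ask how many cells carried the Kupffer program as a set, a Kupffer-gene cell was defined as a C1q macrophage with UMIs of at least 2 core genes and at least 3 core-gene UMIs. There were 7, 6, 0 and 6 such cells in young WT, treated WT, miR-146a-/- and DKO. Their share of kept cells was 0.0681% (0.0274 to 0.140), 0.0720% (0.0264 to 0.157), 0% (up to 0.0383) and 0.0609% (0.0224 to 0.133), with overlapping limits. As a share of the C1q class they made up 24.1% (10.3 to 43.5), 6.67% (2.49 to 13.9), 0% (up to 4.55) and 3.85% (1.42 to 8.18), highest in young WT, whose limits overlapped those of treated WT. Most C1q macrophages held no core-gene UMI at all, namely 20 of 29, 67 of 90, 59 of 66 and 120 of 156. The median depth of the Kupffer-gene cells was 2690 and 3221 UMIs in young and treated WT and 17835.5 in DKO, against 11802, 11453 and 10559 in the other C1q macrophages. All 4 core genes were found together in 4 young WT cells and 1 treated WT cell. With under 20 such cells in each library, the genes that lead them were not ranked.

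Lymphoid-bearing C1q barcodes met the same core-gene rule 8, 67, 3 and 7 times, or in 10.3, 16.5, 1.89 and 2.33% of them. Counting these as well would raise the share of kept cells to 0.146% in young WT, 0.876% in treated WT, 0.0383% in miR-146a-/- and 0.132% in DKO, highest in treated WT. The limit on lymphoid UMIs therefore decided where most treated WT Kupffer-gene barcodes were counted. Of the 691, 2488, 516 and 1372 core-gene UMIs in kept cells, the Kupffer-gene cells held 361, 86, 0 and 142, and 292 of the 361 in young WT came from 1 cell.

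**Figure D3:**
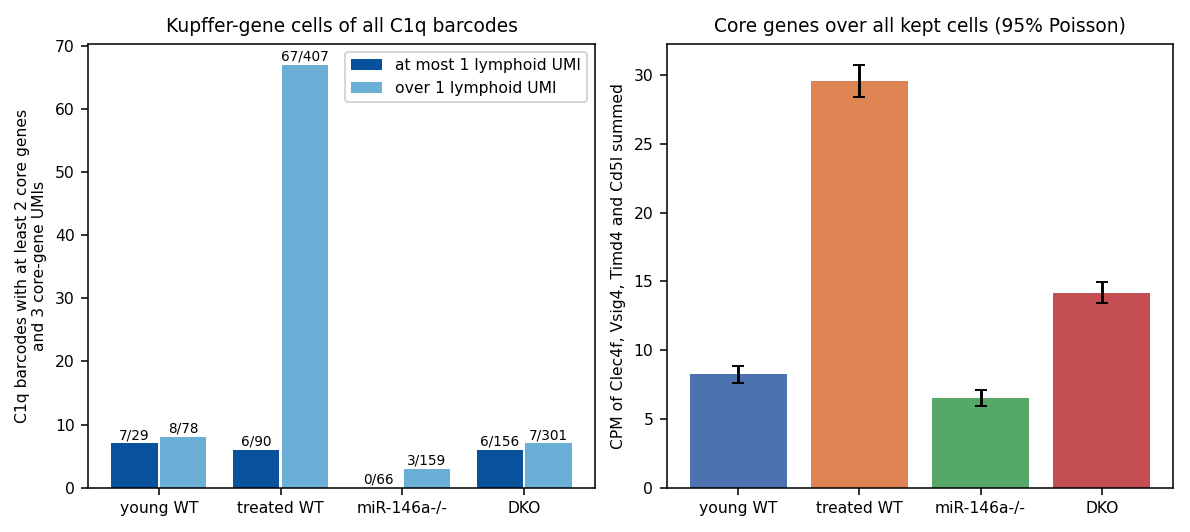
Left, number of C1q barcodes (vertical axis) with at least 2 core genes and 3 core-gene UMIs per library, dark bars for at most 1 and light bars for over 1 lymphoid UMI, with numerator and denominator above each bar. Right, CPM of Clec4f, Vsig4, Timd4 and Cd5l summed over all kept cells, with exact 95% Poisson limits. Treated WT had 67 of 407 such lymphoid-bearing barcodes and the highest sum, 29.6 CPM.

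Treated WT was set against young WT to compare an old liver after DEN and diet with a young healthy one. A gene was counted when 1 of the 2 sums had at least 20 UMIs, and as higher or lower when its CPM ratio passed 2-fold with a prior of 0.5 UMIs. A gene low in 1 library could thus be counted through the other library alone. Log2 ratios include that prior, while folds are ratios of CPM as counted, so they differ where counts are low. A fold against a count of 0 is set against 3 counts in that library, with the other count taken as it is, and beside it stands the log2 limit of the ratio, which carries the error of both counts. In C1q macrophages 5 of 7 members counted were lower in treated WT and 0 were higher, where 3.03% of 6313 genes were lower and 5.77% higher. Vsig4 (9 against 75 UMIs), Timd4 (4 against 22) and Folr2 (10 against 44) reached the minimum of 20 UMIs in young WT only. The young WT class total was smaller (290435 against 1118524 UMIs), so a gene reaching 20 UMIs there alone was lower by construction. Of the lower members, only Clec4f and Cd5l reached the minimum in both libraries. Vsig4 was 32.1-fold lower (log2 ratio -4.94, -6.19 to -4.00), Timd4 21.2-fold (-4.27, -6.40 to -2.85), Clec4f 17.3-fold (-4.09, -4.74 to -3.52), Folr2 16.9-fold (-4.03, -5.24 to -3.07) and Cd5l 2.77-fold (-1.47, -1.79 to -1.14). Nr1h3 (log2 ratio 0.27, -0.13 to 0.71) and Adgre1 (-0.51, -1.001 to 0.02) did not pass. Marco, with 12 against 5 UMIs, and Cd163, with 0 against 11 and so at least 14.1-fold lower (log2 limit -3.27), were below the minimum. The median log2 ratio of the 7 members counted was -4.03 with all cells, against 0.03 over all genes, and 1 cell weighed on that value.

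The 1 young WT cell weighed heavily on this difference. Without the richest cell of each library, a choice made after seeing the data, only Clec4f of 4 members counted was lower (3.24-fold, log2 ratio -1.70), and Cd5l stood at -0.14. The median log2 ratio was -0.31 over these 4 members, against -4.03 over the 7 counted with all cells, so the medians are not of the same members. Those left out stood at -2.54 (Vsig4), -2.03 (Folr2) and -1.67 (Timd4). Vsig4 (5.90-fold lower, log2 limits -3.97 to -1.22), Folr2 (4.09-fold, -3.64 to -0.42) and Timd4 (3.06-fold, -4.18 to 1.16) then fell below the minimum of UMIs and were not counted. When each member was instead counted, again after seeing the data, without the cell holding most of its own UMIs, Clec4f was again the only member counted as lower, at 12 against 23 UMIs (7.92-fold, log2 ratio -2.96), while Vsig4 (10.7-fold, limits -5.27 to -1.85) and Folr2 (8.27-fold, -5.23 to -1.15) were lower on fewer than 20 UMIs. Clec4f then reached the minimum in young WT only, so that call too was set by the minimum. With the mean of single-cell CPM values Cd5l was -0.64, and with lymphoid-bearing barcodes included it turned to 0.37.

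Among 24 other genes tied to Kupffer cells 19 were counted, of which 7 were lower, 0 higher and 12 did not pass, with a median log2 ratio of -0.48. Those lower were Clec1b (3.01-fold), a platelet-type lectin receptor, Cd207 (4.86-fold), the lectin langerin, Fcna (23.1-fold), which encodes ficolin A, Slc40a1 (3.10-fold), the iron exporter ferroportin, the transcription factor Maf (2.11-fold), the chemokine Ccl24 (7.70-fold), and C6, a complement component, at 1 against 20 UMIs (77.0-fold, log2 limits -11.64 to -3.62). Fcna (14 against 84 UMIs), Ccl24 (10 against 20) and C6 reached the minimum in young WT only, so their calls were set by it as well. None of the 10 lipid-associated macrophage genes, such as Trem2 and Gpnmb, passed 2-fold, and their median log2 ratio was -0.15. Without the richest cell of each library 2 of 16 counted genes of the Kupffer list, Cd207 (4.44-fold) and Maf (2.20-fold), were lower, with a median of 0.02, where 2.76% of 6273 genes were lower. Slc40a1 (1.36-fold lower) and Clec1b (1.06-fold higher) then did not pass, Fcna (4.49-fold lower), Ccl24 (5.45-fold lower) and C6 (1 against 3 UMIs) were below the minimum, and again no lipid-associated gene passed.

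miR-146a-/- was set against treated WT to compare loss of the microRNA under the same DEN, diet and age. Of 4 members counted in C1q macrophages 2 were lower and 0 higher, where 4.32% of 6481 genes were lower and 1.67% higher. Cd5l was 36.9-fold lower (log2 ratio -5.04, -7.10 to -3.83), at 4 against 192 UMIs, and Clec4f, at 0 against 29 UMIs, was at least 7.43-fold lower (log2 limit -2.50). Without the treated WT cell that held 17 of the 29 Clec4f UMIs, 12 Clec4f UMIs remained (at least 3.08-fold, log2 limit -1.10), below the minimum. With each member counted without the cell holding most of its own UMIs in each library, a choice made after seeing the data, 1 of 3 members counted was lower, namely Cd5l at 3 against 127 UMIs (log2 ratio -4.81). Nr1h3 (0.05, -0.21 to 0.32) and Adgre1, at 112 CPM in both, did not pass. Below the minimum were Vsig4 with 1 against 9 UMIs, Timd4 with 5 against 4, Marco with 0 against 12 (at least 3.08-fold lower, log2 limit -1.10), all in 1 cell, Folr2 with 0 against 10 (at least 2.56-fold lower, log2 limit -0.79) and Cd163 with none in either. The median log2 ratio of the counted members was -2.52, or -1.45 with Clec4f at its bound, against -0.06 over all genes. Among the 24 other Kupffer genes 7 of 16 counted were lower and 0 higher, with Slc40a1 (21.0-fold), Id1 (7.37-fold), Il18bp (4.74-fold), Hmox1 (3.18-fold), Cd207 (2.53-fold), Clec1b (2.46-fold) and Id3 (2.37-fold), and a median of -0.54. Of these 7, only Hmox1 and Id3 reached the minimum in both libraries. Lipid-associated genes were lower in 6 of 10, Gpnmb by 7.06-fold, Spp1 5.33-fold, Lpl 2.54-fold, Mmp12 2.53-fold, Trem2 2.16-fold and Fabp5 2.07-fold, with a median of -1.07. Without the richest cell of each library Cd5l was 24.4-fold lower, Clec1b (log2 ratio -0.96) and Trem2 (-0.99) narrowly did not pass, and Pltp of the Kupffer list was narrowly higher (1.01).

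DKO was set against miR-146a-/- to compare the added loss of Ccl5. Here 2 of 5 members counted were higher and 0 lower, where 3.46% of 7754 genes were higher and 1.03% lower. Vsig4 was 18.0-fold higher (log2 ratio 3.61, 1.61 to 9.51) at 40 against 1 UMI, and Cd5l 15.2-fold (3.76, 2.54 to 5.82) at 135 against 4 UMIs. Timd4 (0.88, -0.45 to 2.75), Nr1h3 (0.63, 0.41 to 0.85) and Adgre1 (0.44, 0.10 to 0.79) were nearer to equal, and the member median was 0.88 against 0.05 over all genes. Clec4f had 7 against 0 UMIs, Folr2 10 against 0 and Marco 4 against 0, all below the minimum, and Cd163 had none in either. Since 1 DKO cell held 28 of the Vsig4 UMIs and 1 miR-146a-/- cell 4 of the Timd4 UMIs, leaving out the richest cells dropped Vsig4 below the minimum, raised Timd4 to a log2 ratio of 2.75 and moved the median of the 4 members counted to 1.67. With each member counted without its own richest cell, Vsig4 and Timd4 were both below the minimum and Cd5l alone was higher (14.3-fold, log2 ratio 3.62). Cd207 (7.15-fold) and Slc40a1 (4.51-fold) were higher among 16 counted genes of the other Kupffer list, with a median of 0.47, and they too reached the minimum in DKO only. Gpnmb (4.16-fold), Lpl (2.89-fold) and Spp1 (2.53-fold) were higher among the 10 lipid-associated genes, with a median of 0.26. Without the richest cells the same genes of both lists passed, Cd207 at 4.31-fold. The comparison of miR-146a-/- with treated WT shares a library with each of the other comparisons, so it is not independent of them.

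Set against other myeloid classes, the C1q class carried most members at higher mean levels, though not in every library. Each library weighed equally, and a member was counted as higher when its mean CPM with the same prior passed 4-fold, a rule on the prior that was settled after values without it had been seen. Over classical monocytes 6 of 8 members passed (1.66% of all genes did), over patrolling monocytes 5 of 8 (2.11%) and over cDC2 7 of 9 (3.95%). Against classical monocytes Clec4f stood at 119 against 0.0696 CPM, Cd5l at 181 against 1.62, Vsig4 at 72.1 against 1.65, Folr2 at 41.4 against 0, Timd4 at 24.2 against 1.09 and Marco at 7.51 against 0.225. Nr1h3, at 270.4 against 103 CPM, and Adgre1, at 133 against 87.8 CPM, did not pass there, but both passed over cDC2, where they stood at 38.4 and 19.1 CPM. Timd4 did not pass over cDC2, with 24.2 CPM in C1q macrophages and 35.9 CPM in cDC2, and neither did Cd163, at 9.47 and 10.2 CPM. The C1q mean of Cd163 came from young WT alone, 10 of whose 11 UMIs lay in 1 cell, whereas cDC2 of every library held it. Taken 1 library at a time, after seeing the data, 5 of 7, 2 of 4, 0 of 2 and 3 of 5 members counted passed over classical monocytes, 5 of 7, 2 of 4, 0 of 4 and 2 of 5 over patrolling monocytes and 6 of 7, 4 of 4, 1 of 3 and 4 of 6 over cDC2 in young WT, treated WT, miR-146a-/- and DKO. The means were thus carried largely by young WT, and in miR-146a-/- Adgre1 over cDC2 was the only member to pass. Within young WT the means leaned on 1 cell, with and without which Clec4f stood at 448 and 85.2 CPM, Cd5l at 475 and 126 and Vsig4 at 258 and 48.2. All genes passed at 1.43, 0.732, 1.13 and 2.1% over classical monocytes, 1.85, 0.979, 2.01 and 1.88% over patrolling monocytes and 3.59, 4.19, 2.73 and 3.1% over cDC2. For the means, without the richest cell of each library 5 of 7, 4 of 8 and 6 of 8 members passed, against 1.497, 1.91 and 3.91% of all genes. Of the 22 other Kupffer genes counted 9, 13 and 16 passed.

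Timd4 lay more in dendritic cells than in C1q barcodes in every library, a pattern followed up after it had been seen. With lymphoid-bearing barcodes included, dendritic cells held 45 of 75, 45 of 101, 232 of 345 and 291 of 422 Timd4 UMIs (60, 44.6, 67.2 and 69.0%). C1q barcodes held 26, 21, 8 and 27. Conventional dendritic cells of type 1 (cDC1), gated on Xcr1, Clec9a and other genes, gave 7.09, 8.36, 27.3 and 26.4 CPM of Timd4 in 17 of 201, 13 of 150, 37 of 166 and 28 of 214 cells. In cDC2, gated on Cd209a, Clec10a, Mgl2 and Tnip3, the level was 4.49, 0, 89.0 and 50 CPM in 2 of 42, 0 of 50, 16 of 55 and 20 of 129 cells. Both classes were low in the WT libraries and high in the knockouts, also without the richest Timd4 cell of each library (5.23, 7.09, 21.7 and 20.2 CPM in cDC1 and 1.54, 0, 68.2 and 37.2 CPM in cDC2). Mature dendritic cells gave 0, 0, 21.4 and 29.7 CPM, and B cells held no Timd4 UMI in any library. Of the 36, 38, 109 and 118 Timd4 cells, 75, 73.7, 75.2 and 73.7% also held a UMI of Flt3 or Zbtb46, genes of the dendritic lineage, against 8.88, 13.1, 10.1 and 11.2% of kept cells. Another core gene was found in 10, 14, 6 and 11 of them.

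For miR-146a-/- over treated WT, Timd4 was 3.27-fold higher in cDC1 (log2 ratio 1.69, 1.07 to 2.39), 1 of 3 members counted against 1.74% of genes. In cDC2 it was at least 24.5-fold higher (log2 limit 4.29) and Nr1h3 was 3.46-fold higher (1.76, 1.04 to 2.62), both of 2 members counted against 3.44% of genes. There Timd4 (91 against 0 UMIs) and Nr1h3 (77 against 18) reached the minimum in miR-146a-/- only. Without the richest Timd4 cell the Timd4 bound was at least 18.6-fold. In cDC2 Lyz2, Csf1r and the summed marker lists of monocytes and macrophages were also higher in miR-146a-/- than in treated WT, while the single genes Chil3 and Vcan were lower. Lyz2 stood at 2479.5, 573, 1669.7 and 1102 CPM in cDC2 of young WT, treated WT, miR-146a-/- and DKO, and Csf1r at 264, 221, 342 and 359 CPM. The 5 patrolling monocyte genes, led by Adgre4, summed to 98.9, 50.8, 109.6 and 142 CPM, with Ace at 0 in treated WT, and the 5 classical monocyte genes, led by Ccr2, to 355, 318, 383 and 366 CPM, with Chil3 at 0 in young WT and miR-146a-/- and Vcan at 0 in miR-146a-/-. Negr1 and Fcgr4 summed to 43.4, 4.84, 18.6 and 26.9 CPM, with Negr1 at 0 in treated WT, and the C1q genes to 27.0, 12.1, 18.6 and 11.3 CPM. Lyz2 and the Negr1 and Fcgr4 sum were thus lowest in treated WT. In cDC2 without any C1q UMI, a choice made after seeing the data, Timd4 was at least 23.8-fold and Nr1h3 4.45-fold higher in miR-146a-/- than in treated WT. The part of these marker genes, the C1q genes among them, in the cDC2 levels of Timd4, Nr1h3, Adgre1 and Cd163 was not tested. In cDC1 Lyz2 went the other way, at 439 CPM in miR-146a-/- against 622 CPM in treated WT, as did the C1q genes at 16.1 against 54.0 CPM.

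Nr1h3 also differed between libraries in monocytes. Classical monocytes gave 56.0 CPM (38.1 to 79.5), 177 (159 to 196), 78.2 (70.8 to 86.2) and 100.8 (93.6 to 108), and patrolling monocytes 60.8 (44.7 to 80.8), 168 (150.2 to 187), 96.8 (89.4 to 105) and 118 (112 to 125). Treated WT was highest and young WT lowest in both, with young WT overlapping miR-146a-/- in classical monocytes only. Treated over young WT, Nr1h3 was 3.15-fold higher in classical monocytes (log2 ratio 1.64), the only passing member of 2 against 4.84% of genes, and 2.76-fold in patrolling monocytes (1.45), 1 of 2 against 4.21%. It was 10.7-fold higher in cDC1 (3.33) at 55 against 7 UMIs, 1 of 2 members against 4.04% of genes, and the C1q genes stood at 54.0 against 8.98 CPM and mature dendritic cell genes at 147 against 6.62 CPM there. For miR-146a-/- over treated WT it was 2.26-fold lower in classical monocytes (-1.18, -1.38 to -0.97), 1 of 2 members against 4.03% of genes, and 1.53-fold with lymphoid-bearing barcodes included. The 3 C1q genes were likewise highest in treated WT, at 23.5, 131, 48.8 and 80.6 CPM in classical and 36.2, 156, 32.9 and 61.5 CPM in patrolling monocytes, led by C1qb except in patrolling monocytes of young WT (C1qa). In classical monocytes without any C1q UMI, a choice made after seeing the data, Nr1h3 was 2.71-fold lower in miR-146a-/- than in treated WT. The part of the C1q genes in the monocyte levels of Nr1h3 was not tested. Erythroid genes, led by Hbb-bs, were at 933 CPM in classical monocytes of treated WT and at most 3.61 CPM in those of the other libraries. Cells gated on Negr1 and Fcgr4 with at most 1 lymphoid UMI numbered 0, 0, 21 and 278, and lymphoid-bearing barcodes passing that gate 2, 8, 19 and 245. The former gave 549 CPM of Nr1h3 (422 to 703) in miR-146a-/- and 322 CPM (294 to 351) in DKO.

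**Figure D4:**
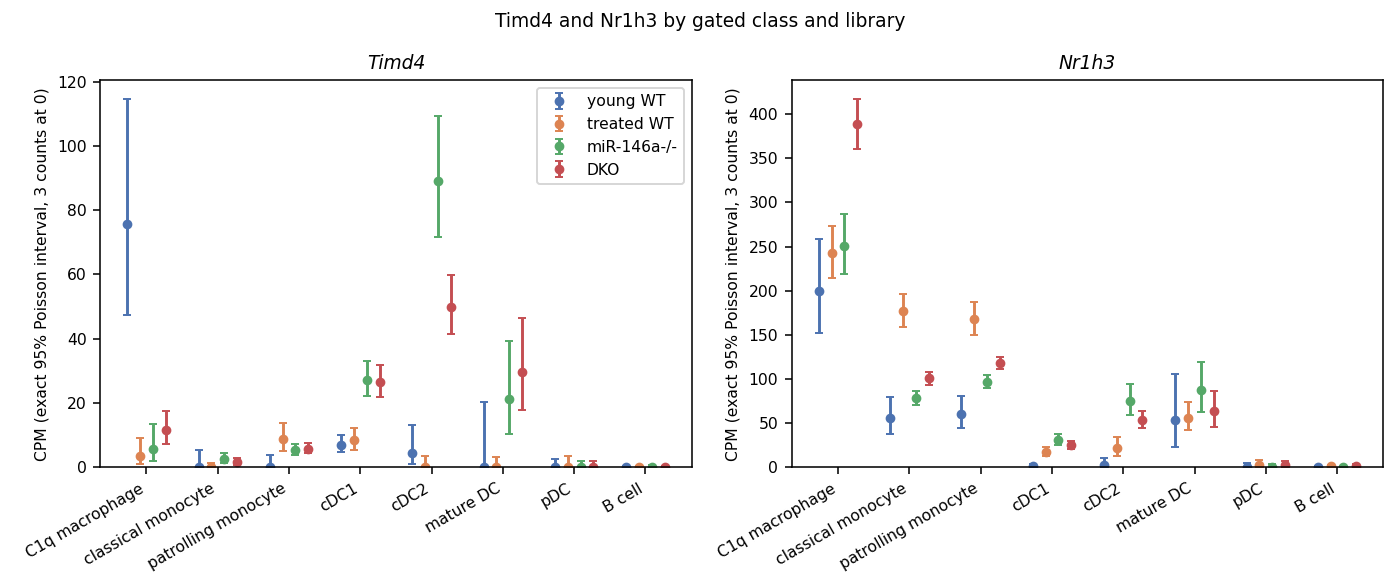
Level of Timd4 (left) and Nr1h3 (right) in CPM (vertical axes) by gated class (horizontal axes) and library (colors), with exact 95% Poisson limits (3 counts where the count was 0). In cDC2 the 2 knockout libraries had Timd4 at 89.0 (miR-146a-/-) and 50 CPM (DKO), above the 4.49 and 0 CPM of young and treated WT, and Nr1h3 in classical monocytes was highest in treated WT at 177 CPM.

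Adgre1 in monocytes stood at 72.3, 87.1, 88.8 and 103 CPM in classical and 109, 91.3, 100.4 and 139.9 CPM in patrolling monocytes, and passed 2-fold between libraries in neither class. In Negr1 Fcgr4 cells the level of Adgre1 was 148 CPM for miR-146a-/- and 292 CPM for DKO. Treated over young WT it was 5.31-fold lower in cDC2, at 8.47 against 44.9 CPM, as the 1 member counted, where 2.35% of genes were lower. Lyz2 was lower in the same cells, at 573 against 2479.5 CPM, and so were the patrolling monocyte genes, at 50.8 against 98.9 CPM, and the Negr1 and Fcgr4 sum, at 4.84 against 43.4 CPM. DKO over miR-146a-/-, it was 2.44-fold higher in cDC1, at 14.0 against 5.73 CPM, 1 of 3 members against 1.29% of genes, beside a Negr1 and Fcgr4 sum of 52.9 against 13.4 CPM and C1q genes at 38.0 against 16.1 CPM, whose part was not tested. Cd163 was 2.47-fold higher in cDC2 in that comparison, at 23 against 4 UMIs (log2 ratio 1.17, -0.24 to 3.30), 1 of 4 members against 2.83% of genes, and at 17 against 3 UMIs without its richest cells it was below the minimum.

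Marco in patrolling monocytes rested on 1 cell. It was at least 4.65-fold higher in miR-146a-/- than in treated WT (log2 limit 1.86), 1 of 4 members against 5.08% of genes, and 25.6-fold lower in DKO than in miR-146a-/-, 1 of 4 against 0.616%. Of the 47 UMIs in miR-146a-/- 43 lay in 1 cell of 27889 UMIs, without which the level fell from 7.12 to 0.608 CPM. Neutrophil genes in patrolling monocytes summed to 71.1, 193, 2425 and 1041 CPM, led by S100a8 in the knockouts, and their part in the Marco level was not tested.

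Across 33 points, each a myeloid class of at least 20 cells in a library, the gene most like each member was ranked by Pearson's r of log2(CPM + 10) among 12556 genes. Points of a library share its depth and free RNA, and the young WT C1q point carries the 1 rich cell, so r is a description. Part of the list was alike in pattern, namely Clec4f, Vsig4, Folr2, Marco and Cd5l. Clec4f lay nearest to Fcna (0.98), Folr2 (0.95) and Vsig4 (0.91), Vsig4 to Folr2 (0.95) and Fcna (0.92), and Folr2 to Vsig4 (0.95), Clec4f (0.95) and Fcna (0.94). The other members were less like these, with Clec4f at 0.28 with Nr1h3, 0.29 with Adgre1 and 0.60 with Cd163. Nr1h3 reached 0.68 with Adgre1 and -0.23 with Cd163. Marco lay nearest to Clec4f (0.85), Fcna (0.82) and Cd5l (0.82), and Cd5l to Igf1 (0.86), Clec4f (0.85) and Cd207 (0.85). Nr1h3 lay nearest to the neighbouring lysosomal gene Acp2 (0.96), Acp5 (0.93) and Rasgrp1 (0.91), and Adgre1 to Tlr8 (0.97), Klra2 (0.96) and Pilrb1 (0.95). Timd4 reached only 0.75 with Gm49742, Tbx21 and Tuft1, and 0.41 with Clec4f, 0.38 with Vsig4 and 0.29 with Cd5l. Cd163 reached 0.78 with Miga2, 0.77 with Lmbr1 and 0.76 with Clec4g.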

How the data were processed

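The authors sorted CD45+ liver cells, made 10x Genomics 5' v2 libraries and deposited unnormalized UMI counts for each gene of each cell. The file headers and the submitters' notes name Cell Ranger 7.0.1 with mm10, while the published methods name an earlier version. The 4 libraries, 1 per group, were grouped by their labels. The published limits on cells were applied, with 600 and 6000 as the lowest and highest number of features and 5% as the largest mitochondrial share. The upper feature limit and the limit of 1 lymphoid UMI were the treatment of doublets, and no doublet caller was run. The C1q class needed all 3 C1q genes and 10 UMIs, and every other class at least 2 listed genes and 3 UMIs. Counts were summed per class and library and divided by the class total (CPM). Since each group has 1 library, no test was run. Named genes were the 9 members, the gating and contaminant markers, 24 further Kupffer-associated and 10 lipid-associated genes, the 3 genes nearest each member (at least 50 UMIs in the myeloid classes), and Ccl5. The members and lists were chosen with earlier results of these data known. Alternatives covered gates, cell filters, thinning, priors, minimum counts and scaling, with TMM factors from edgeR 4.0.16. Analysis used Python 3.11.15, numpy 2.4.6, scipy 1.17.1, pandas 2.3.3 and matplotlib 3.10.9, and the functions were tested on simulated data.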

Additional observations from a re-analysis of the deposited data

Results flagged for a closer look

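Cells removed by the quality limits were not used in the comparisons, and in those of treated WT the sum of the core genes Clec4f, Vsig4, Timd4 and Cd5l was higher than in the removed cells of young WT. Cd5l made up most of it, and Timd4 was not higher under the feature minimum (0 against 7.45 CPM) or over the feature limit (0.382 against 0.978 CPM), nor Clec4f over the feature limit (4.86 against 5.22 CPM). Cells under the feature minimum gave 558 CPM (440 to 699), from 76 UMIs in 21 of 154 cells, against 70.7 CPM in young WT. Cells over the feature limit gave 39.5 CPM from 724 UMIs in 83 of 427 cells, against 21.5 CPM in young WT. Of 180 such treated WT cells with at least 10 C1q UMIs, 179 had over 1 lymphoid UMI. Cells within the feature limits but over the mitochondrial limit gave 39.98 CPM from 22 UMIs in 17 of 210 cells, against 2.13 CPM in young WT.

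Nr1h3 went opposite ways in miR-146a-/- over treated WT, with a log2 ratio of -1.18 in classical monocytes and 1.76 in cDC2. The C1q genes stood at 48.8 against 131 CPM in classical monocytes and Lyz2 at 1669.7 against 573 CPM in cDC2. The difference between these classes was not tested.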

How the results depend on the processing

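With 1 library per group, counting error is the only error measured, and the small C1q class limits every ratio. Over the alternatives, 372 log2 ratios of members in C1q macrophages stayed within their limits, 32 moved and 1 reversed. Part of the 372 could not move, so that number is not a measure of stability. Dropping the minimum of UMIs changes no log2 ratio, and dropping the upper feature limit left the C1q class as it was. Cd163 had no UMI in either library of miR-146a-/- over treated WT and of DKO over miR-146a-/-, so its limits there were unbounded. Members below the minimum of UMIs were included as well. Folds stayed within their limits 6 times in cDC1, 10 in cDC2 and 4 in classical monocytes, and moved 2 times in each of the last 2 classes. The counts of members lower and higher by 2-fold were within 1.5 times the reported count 40 and 42 times and outside 5 and 3 times, and those higher by 4-fold than another class stayed within it in all 15, 2 and 2 alternatives run for classical monocytes, patrolling monocytes and cDC2. Where a value moved, the cause was not tested unless stated.

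With no limit on lymphoid UMIs, Cd5l in treated over young WT reversed to a log2 ratio of 0.37, 5 members were lower in miR-146a-/- over treated WT, Kupffer-gene cells made up 0.146% of young WT and 0.876% of treated WT, and Nr1h3 in classical monocytes of miR-146a-/- was 1.53-fold lower. With no lymphoid UMI allowed, 1 member was higher in DKO over miR-146a-/-. With no minimum of 20 UMIs, where more genes are counted by construction, 5 members were lower in miR-146a-/- over treated WT and 5 higher in DKO over miR-146a-/-. The treated WT share of Kupffer-gene cells was 0.0240% with 30 C1q UMIs, 0.168% with 1 core gene and 0.0240% with 3 core genes, and that of DKO 0.0102% with 3.

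Alternatives chosen after seeing the data left out the richest cell, after which 1 member was lower in treated over young WT and Timd4 in cDC2 of miR-146a-/- was at least 18.6-fold higher. With each member counted without the cell holding most of its own UMIs, 1 member was lower in treated over young WT, 1 lower in miR-146a-/- over treated WT and 1 higher in DKO over miR-146a-/-, since the other members then had under 20 UMIs or, for Nr1h3 and Adgre1 in all 3 comparisons and Cd5l in treated over young WT (log2 ratio -0.14), did not pass 2-fold. A gate on 3 cDC2 genes gave at least 15.4-fold, and Nr1h3 in classical monocytes without any C1q UMI was 2.71-fold lower. Outside the C1q class, Timd4 in patrolling monocytes of miR-146a-/- over treated WT went from a log2 ratio of -0.73 (35 against 17 UMIs) to 1.998 (20 against 1 UMI) without its own richest cells.

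By construction, shares of C1q macrophages rose without thinning, in young WT to 17.2% for Folr2, 51.7% for Nr1h3 and 72.4% for Adgre1, in treated WT to 21.1% for Cd5l, 72.2% for Nr1h3 and 56.7% for Adgre1, in miR-146a-/- to 6.06% for Cd5l, 80.3% for Nr1h3 and 51.5% for Adgre1, and in DKO to 17.3% for Cd5l, 85.3% for Nr1h3 and 57.7% for Adgre1. Thinning to a lower depth gave 0% for Marco in young WT, 20% for Nr1h3 in treated WT, 0% for Timd4 and 7.58% for Adgre1 in miR-146a-/-, and 0% for Folr2, 30.1% for Nr1h3 and 15.4% for Adgre1 in DKO. A second random start gave 0% for Timd4, Marco and Cd163 in young WT and 0% for Timd4 in miR-146a-/- and DKO.

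For treated over young WT, a prior of 5 UMIs moved the median log2 ratio of all genes from 0.03 to -0.26 and the genes higher and lower from 5.77 and 3.03% to 0.586 and 5.85%. No minimum moved it to -0.19, with 7.80 and 17.5% higher and lower. The prior of 5 left 5 members lower and no minimum 6. For miR-146a-/- over treated WT no minimum moved 1.67 and 4.32% to 12.5 and 15.5% and the prior of 5 to 1.20 and 2.35%. For DKO over miR-146a-/- 3.46 and 1.03% became 1.06 and 1.08% with the prior of 5 and 9.58 and 12.2% with no minimum. With the mean of single-cell CPM values, genes higher and lower made up 10.7 and 6.61% for treated over young WT. They made up 2.89 and 6.51% for miR-146a-/- over treated WT and 5.60 and 2.39% for DKO over miR-146a-/-. Removing the upper limit on features left the C1q class as it was, since each added C1q barcode had over 1 lymphoid UMI or fell in another class, so those unchanged values say nothing of stability. No paired analysis was possible because each group has 1 library.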
